A study of Rattus norvegicus with 8 samples.

Results

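HSP70 and HSP110 chaperones and their co-chaperones were followed in NR8383 cells, an alveolar macrophage line started from rat lung lavage, that had been exposed to zinc oxide (ZnO) for 4 h. The set holds 10 genes chosen by name: the HSP70 genes Hspa1a, Hspa1b, Hspa2, Hspa8 and Hspa9, the HSP110 genes Hspa4, Hspa4l and Hsph1, and the co-chaperones Bag3 and Dnajb1. By textbook knowledge Hspa1a, Hspa1b, Hsph1, Bag3 and Dnajb1 were taken as inducible, and Hspa2, Hspa4, Hspa4l, Hspa8 and Hspa9 as constitutive or otherwise regulated. The set was chosen with earlier results of these data known. Of 45598 probes on the array, 13 carried an accession of a rat RefSeq transcript of a member, and they covered 8 of the 10 genes. Hspa1b and Dnajb1 had no matching accession and were not analysed here. Hspa4l had a probe that was too dim to be tested, so 7 members were among the 13452 genes tested. Of these 13452, 7978 carried a gene symbol. The others were counted by the identifier given on the array, and some of them may belong to the same gene. Shares and ranks over all genes below include both kinds.

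The comparison was between 2 doses: 4 arrays of cells given ZnO at 4 µg/mL (ZnO 4) and 4 arrays of cells given 16 µg/mL (ZnO 16), listed by the submitters as biological replicates. Both groups were the same line, which is 1 established line and not primary lung macrophages, and untreated cells were not analysed here. By their descriptions the ZnO 4 cells had 20 passages behind them and the ZnO 16 cells 200, and all arrays of a dose shared 1 slide, so dose, passage and slide cannot be told apart. Every difference below is ZnO 16 minus ZnO 4, and replicates carry the number in their titles.

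HSP70 proteins bind exposed stretches of unfolded proteins and release them in a cycle driven by ATP. J-domain proteins bring the client and start ATP hydrolysis, and nucleotide exchange factors, among them the HSP110 and BAG proteins, reset the cycle. When unfolded proteins build up, heat shock factor 1 (Hsf1) binds heat shock elements, inverted repeats of the unit GAA, in front of the inducible genes, whereas the cognate HSP70 Hspa8 is made at all times in nearly every cell. In macrophages the same system serves protein folding, antigen handling and survival under stress.

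The letters of such elements were looked for in RefSeq promoter windows of build GRCr8, which run from 250 bases before to 50 bases after the annotated start. A pair of units was GAANNTTC or TTCNNGAA, and a run of 3 units was GAANNTTCNNGAA or TTCNNGAANNTTC. Each search covers both strands, and a run holds 2 pairs that overlap by 1 unit. A pair was present in 15.9% of 33469 windows and a run in 0.798%. The 250 bases before the start are shown for the inducible genes that were measured and for Hspa8, because the results below set the former against the latter. They are written 5′ to 3′ in the direction of the gene, all on the plus strand, with pairs and runs in capitals. The window of Hspa1a lies at chr20:3859506-3859755, that of Hsph1 at chr12:10427118-10427367, that of Bag3 at chr1:192533210-192533459 and that of Hspa8 at chr8:50080264-50080513.
Hspa1a: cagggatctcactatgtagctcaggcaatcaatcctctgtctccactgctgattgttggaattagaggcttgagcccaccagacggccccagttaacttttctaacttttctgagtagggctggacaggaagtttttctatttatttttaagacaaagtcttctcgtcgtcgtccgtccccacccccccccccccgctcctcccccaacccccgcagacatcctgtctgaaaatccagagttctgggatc
Hsph1: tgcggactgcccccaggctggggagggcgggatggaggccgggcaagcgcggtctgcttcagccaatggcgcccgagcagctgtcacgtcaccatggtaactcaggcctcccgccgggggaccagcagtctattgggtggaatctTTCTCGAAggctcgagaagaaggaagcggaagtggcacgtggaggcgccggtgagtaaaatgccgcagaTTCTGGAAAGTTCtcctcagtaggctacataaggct
Bag3: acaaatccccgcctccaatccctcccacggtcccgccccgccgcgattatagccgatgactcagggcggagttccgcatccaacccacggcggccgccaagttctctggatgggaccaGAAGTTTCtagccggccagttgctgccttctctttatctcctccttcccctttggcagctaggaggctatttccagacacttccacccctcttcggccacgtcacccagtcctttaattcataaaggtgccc
Hspa8: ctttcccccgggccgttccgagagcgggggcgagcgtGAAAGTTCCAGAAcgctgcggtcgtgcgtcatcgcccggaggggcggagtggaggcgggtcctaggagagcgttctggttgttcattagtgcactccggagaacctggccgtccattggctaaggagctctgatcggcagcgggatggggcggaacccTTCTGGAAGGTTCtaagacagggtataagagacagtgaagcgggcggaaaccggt

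The full window was found for 9 of the 10 members, not for Hspa1b, and 7 of the 9 held a pair. Hsph1 held 3 pairs, 2 of which formed the run TTCTGGAAAGTTC at positions -36 to -24 from the start. Hspa8 held 4 pairs in 2 runs, GAAAGTTCCAGAA at -213 to -201 and TTCTGGAAGGTTC at -55 to -43. Bag3 held 1 pair, GAAGTTTC, at -132 to -125. Hspa9 and Dnajb1 held 2 pairs each, and Hspa2 and Hspa4l 1 each. The windows of Hspa1a and Hspa4 held neither pattern, which says only that these letters are not in the windows searched. Within the windows searched, 1 per gene, the letters did not divide the 9 members by class: the constitutive Hspa8 had more runs than the inducible Hsph1. Other promoter sequence of these genes was not examined.

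**Figure D1:**
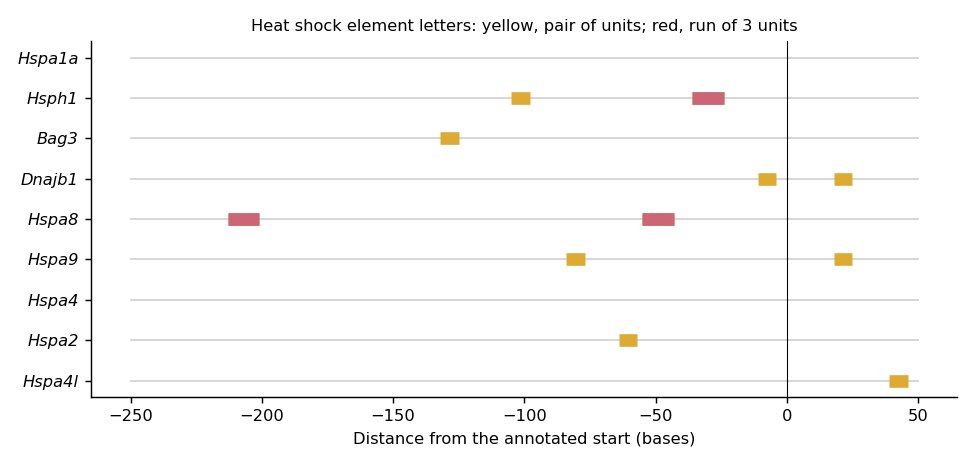
Position of the heat shock element letters in the promoter windows of 9 members, as distance in bases from the annotated start (vertical line). Yellow marks a pair of units and red a run of 3 units, and the runs lie in Hsph1 and Hspa8.

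Levels are log2 of the processed signal minus the array's own 75th percentile, so 0 is that percentile, and levels of different probes are not compared. The 75th percentile signal was 313 to 516 on the ZnO 4 arrays and 151 to 381 on the ZnO 16 arrays, and 31.4% to 39.3% of probes were well above background. Of 11 macrophage markers on the array 9, among them Cd68, Csf1r, Itgam and Spi1, were well above background on all 8 arrays, while Marco and Adgre1 were on none. Of the markers listed for epithelium, fibroblasts, lymphocytes and neutrophils, 0 reached that mark on all 8 arrays, whereas the endothelial markers Pecam1 and Cdh5 did. Of the 9 tested macrophage markers 1 was called higher and 2 lower (median -0.020), among them Spi1 at 0.81 and Cd68 at -1.74, and of the 2 tested endothelial ones 1, Pecam1 at -1.08, was lower (limma); their part in the results was not tested. Spike-in RNA differed between the doses by -0.68 to 1.62 over 8 probes, with a median of 1.17, and a member's difference inside that range cannot be told apart from a difference between slides. A low-signal area covered 2402 spots of ZnO 4 replicate 4 and 317 of ZnO 16 replicate 4. In whole cultures, fewer cells expressing a gene and less RNA per cell cannot be told apart.

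The 3 inducible members that could be tested, Hspa1a, Bag3 and Hsph1, were all higher at 16 µg/mL, and 0 of the 4 tested constitutive members was called in either direction (limma, Benjamini-Hochberg adjusted p under 0.05). At an unadjusted p under 0.05, 1 of the 4, Hspa9, passed. Hspa1a was bright enough to be tested only through the ZnO 16 arrays. Without a rise it would not have been tested, so its call and its part in the median follow in part from that rule. With all 8 arrays required well above background, Bag3 was the only inducible member tested, and it was called higher. The median difference was 2.96 over the 3 inducible members and 0.24 over the 4 constitutive ones, against 0.0047 over all genes tested. These counts stand beside a high background, since 41.7% of all genes tested were called, 19.8% higher and 21.9% lower. The doses did not overlap in 4 of the 7 tested members (Hspa1a, Bag3, Hsph1 and Hspa9), against 40.0% of all genes. Of 13452 genes, 67 had a larger fitted difference than Bag3 and 91 a larger one than Hsph1, counting genes whose signal at 1 dose was below background. The absence of calls among the constitutive members depends on the processing: Hspa8 was called higher with quantile normalization (0.35, limma adjusted p = 0.0185), Hspa9 with the mean over its probes (0.80, limma adjusted p = 0.0192), and with normexp and quantile normalization 3 of the 4 were called, Hspa8 (0.38, limma adjusted p = 0.00969) and Hspa9 (1.13, limma adjusted p = 0.0177) higher and Hspa2 (-0.24) lower.

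**Figure D2:**
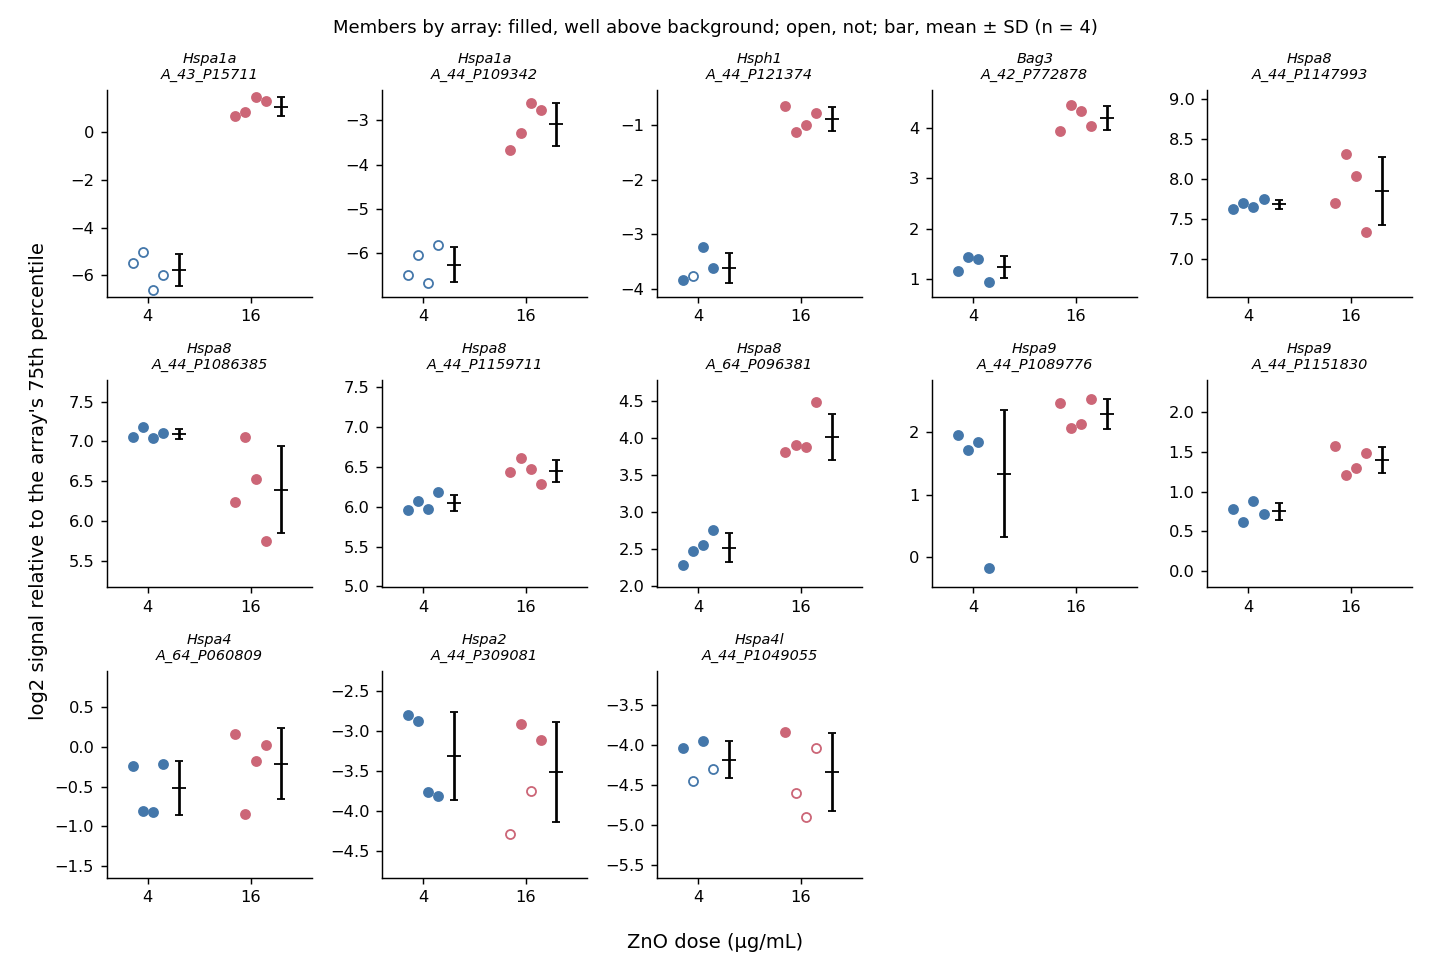
Level of each of the 13 member probes on each array, in log2 units relative to the array's 75th percentile, by ZnO dose; filled points were well above background, open points were not, and bars are the mean ± SD (n = 4). The doses separate for both Hspa1a probes, Hsph1 and Bag3. They also separate for both Hspa9 probes and for the Hspa8 probes A_44_P1159711 and A_64_P096381. Over all genes tested, 40.0% had doses that did not overlap. The Hspa8 probes differ from each other in direction.

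Hspa1a encodes the main stress-induced cytosolic HSP70. Its brighter probe (A_43_P15711) read -5.48, -5.02, -6.60 and -5.97 in ZnO 4 replicates 1 to 4, and 0.67, 0.85, 1.49 and 1.32 in ZnO 16 replicates 1 to 4. In linear terms the processed signal was 4.94 to 11.6 at the lower dose and 271 to 952 at the higher. The probe was well above background on all 4 ZnO 16 arrays and on 0 of the 4 ZnO 4 arrays, so the lower dose gives only a bound. Setting the ZnO 16 mean against each ZnO 4 array's lowest signal well above background, this probe was at least 41.5-fold higher with this scaling. That is no minimum for the gene, since the size depends on the probe and the processing, as given below. The fitted difference, 6.85 (SE 0.33, limma adjusted p = 3.84e-07), leans on signals below background.

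A second Hspa1a probe (A_44_P109342) was far dimmer but ran the same way. It read -6.48, -6.03, -6.68 and -5.82 at ZnO 4 and -3.67, -3.29, -2.61 and -2.78 at ZnO 16. It too was well above background on all ZnO 16 arrays and on none at ZnO 4, and its bound was at least 2.30-fold higher (fitted difference 3.17, limma adjusted p over probes 7.84e-05). Hspa1b, a neighbouring gene with a nearly identical coding sequence, can share signal with these probes, so the split between both genes is uncertain. With normexp background correction and quantile normalization the fitted difference of Hspa1a was 3.57 and still called.

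Bag3 encodes a nucleotide exchange factor that links HSP70 to selective autophagy. It read 1.17, 1.44, 1.39 and 0.95 at ZnO 4 and 3.94, 4.46, 4.34 and 4.04 at ZnO 16, well above background on all 8 arrays. The lowest ZnO 16 array exceeded the highest ZnO 4 array by more than the range within either dose. Bag3 rose by 2.96 (SE 0.16, 95% interval 2.61 to 3.31, limma adjusted p = 6.86e-07), which is 7.77-fold. On ZnO 4 replicate 4, 1 of its 2 spots fell within the low-signal area and read 0.30 against 1.06 to 1.36 on the other 3 arrays. Without the spots of that area the rise was 2.80.

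Hsph1 encodes the inducible HSP110, a nucleotide exchange factor that also holds unfolded clients. It read -3.84, -3.76, -3.23 and -3.62 at ZnO 4 and -0.65, -1.13, -0.99 and -0.77 at ZnO 16. The probe was near the detection limit at the lower dose, well above background on 3 of the 4 arrays, and clear of it on all 4 at the higher. Hsph1 rose by 2.73 (SE 0.20, 95% interval 2.29 to 3.17, limma adjusted p = 4.39e-06), which is 6.63-fold. With normexp background correction, which lifts dim signals, the rise was 1.54 and still called. With the main scaling the fitted rises of Bag3, Hsph1 and the brighter Hspa1a probe lie outside the range of the spike-in differences. The Hsph1 rise with normexp correction stays below the top of that range, 1.62, as does the bound of the dimmer Hspa1a probe.

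Among the constitutive members, Hspa8, the cognate cytosolic HSP70, had 4 probes to 1 accession, and these did not run together. The brightest (A_44_P1147993), which stands for the gene, read 7.63, 7.70, 7.65 and 7.75 at ZnO 4 and 7.70, 8.31, 8.04 and 7.33 at ZnO 16. The doses overlapped, and the difference was 0.16 (SE 0.20, 95% interval -0.28 to 0.60, limma adjusted p = 0.543). It was 0.0061 without ZnO 16 replicate 2, 0.097 without ZnO 16 replicate 3 and 0.33 without ZnO 16 replicate 4, and not called in any of these. The probe A_44_P1086385 read 7.05, 7.18, 7.04 and 7.11 against 6.24, 7.05, 6.52 and 5.75, a difference of -0.70 that was called lower (limma adjusted p over probes 0.0342). Its doses overlapped by 1 array, ZnO 16 replicate 2.

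The other Hspa8 probes were called higher. A_44_P1159711 read 5.96, 6.08, 5.97 and 6.18 against 6.43, 6.62, 6.47 and 6.28, a difference of 0.40 (limma adjusted p over probes 0.0246). The dimmest, A_64_P096381, read 2.29, 2.48, 2.56 and 2.75 against 3.80, 3.91, 3.87 and 4.48, a difference of 1.50 (limma adjusted p over probes 7.95e-05). Over all kept probes 6493 of 15563 (41.7%) were called. The data therefore give Hspa8 no single direction, and 3 of the 4 values lie within the spike-in range of -0.68 to 1.62, with -0.70 just outside it. On 3 of the 4 probes the highest ZnO 16 readings were in replicates 2 and 3, the arrays with the lowest 75th percentile signals (151 and 190, against 374 and 381), and the part of this in the result was not tested. The spread of the brightest probe was 0.056 (SD, n = 4) at ZnO 4 and 0.42 (SD, n = 4) at ZnO 16.

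Hspa9 encodes mortalin, the HSP70 of the mitochondrial matrix. Its brighter probe (A_44_P1089776) read 1.96, 1.70, 1.84 and -0.18 at ZnO 4 and 2.46, 2.06, 2.12 and 2.52 at ZnO 16. The doses did not overlap, yet the difference of 0.96 did not pass the test (SE 0.40, 95% interval 0.061 to 1.86, limma adjusted p = 0.0807). ZnO 4 replicate 4 was the low array: 1 of the probe's 2 spots lay in its low-signal area and read -2.53, against 1.34 to 1.57 on the other 3 arrays, while the other spot read 2.18 against 2.06 to 2.35. Without the spots of that area the difference was 0.37 (limma adjusted p = 0.067), and without ZnO 4 replicate 4 it was 0.46 and was called (limma adjusted p = 0.0364).

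The second Hspa9 probe (A_44_P1151830), outside that area, read 0.78, 0.62, 0.88 and 0.72 at ZnO 4 and 1.58, 1.21, 1.30 and 1.49 at ZnO 16. Here the doses were well apart, and the difference of 0.64 was called (limma adjusted p over probes 0.0025). Both probes thus had a positive difference below 1 log2 unit, inside the spike-in range.

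Of the other HSP110 members, Hspa4 did not pass the test and Hspa4l was not tested. Hspa4, the constitutive cytosolic HSP110, read -0.24, -0.80, -0.82 and -0.22 at ZnO 4 and 0.15, -0.85, -0.18 and 0.018 at ZnO 16. The doses overlapped, with a difference of 0.31 (95% interval -0.22 to 0.84, limma adjusted p = 0.323). Hspa4l, a relative of Hspa4 best known from testis, was well above background on 2 of 4 arrays at ZnO 4 and on 1 of 4 at ZnO 16, where it read -4.45 to -3.94 and -4.90 to -3.83. At these signals a change could not be measured, and its values overlapped between doses.

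Hspa2, an HSP70 needed in sperm development, was also dim. It read -2.79, -2.88, -3.77 and -3.82 at ZnO 4 and -4.29, -2.91, -3.75 and -3.11 at ZnO 16, and was well above background on 4 and on 2 arrays. The difference was -0.20 (95% interval -1.03 to 0.62, limma adjusted p = 0.687), and the doses overlapped. It turned to 0.055 without ZnO 16 replicate 1, and with normexp correction it was -0.24 and called (limma adjusted p = 0.0372). The intervals of Hspa2 and Hspa4 do not exclude rises of 0.5 log2 units, so a missed threshold does not show that their levels were alike.

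**Figure D3:**
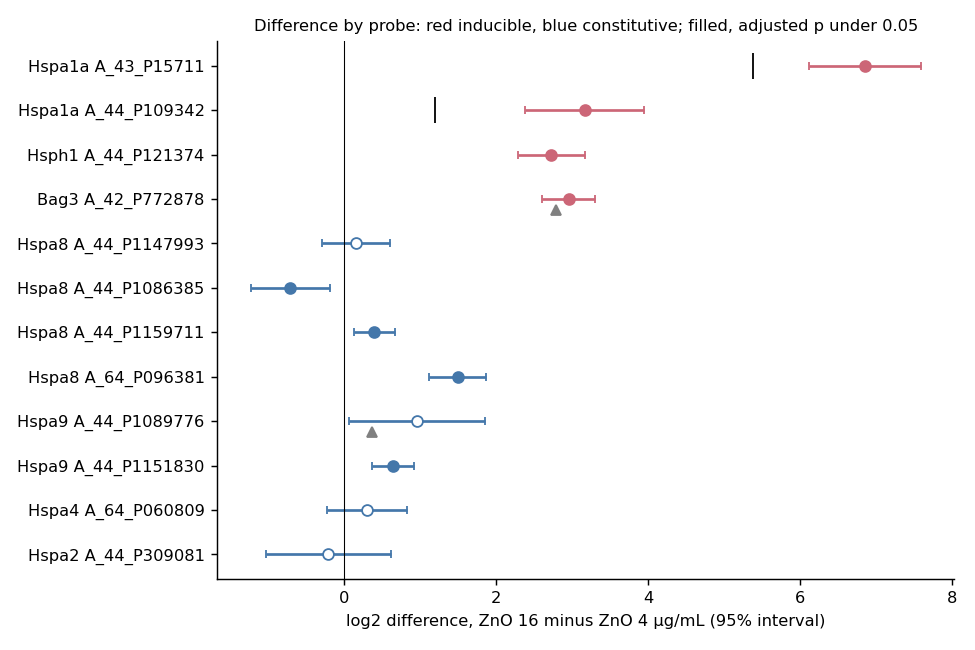
Log2 difference between doses (ZnO 16 minus ZnO 4) for the 12 tested member probes, with 95% intervals; red is inducible, blue constitutive, and filled points have a limma adjusted p under 0.05 over all probes. Black ticks mark the bounds for the 2 Hspa1a probes, grey triangles the values without the low-signal area, and the Hspa8 probes run from -0.70 to 1.50.

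Scaling between arrays bears on the small differences. Without it the median of all genes shifted to -0.75, with scaling to the spike-ins to -0.69 and with scaling to the array median to 0.17. Each of these scalings shifts all values of an array alike, so differences relative to those medians stay nearly the same by construction. The plain values of Hspa8 and Hspa4 turned, to -0.59 and -0.45 without scaling and to -0.53 and -0.38 with spike-in scaling. Hspa1a, Bag3 and Hsph1 stayed called higher under each of these.

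To set the inducible members against a constitutive one without any scaling, each member was expressed as its log2 ratio to the brightest Hspa8 probe on the same array. Only how that ratio differs between doses carries information, since the level of 1 probe against another does not. A ratio does not remove a difference between slides that varies with brightness. Of the 8 spike-in probes, the brightest, at ZnO 4 levels of 9.25 and 6.99, differed by -0.21 and -0.68. The others, at ZnO 4 levels of -2.43 to 6.07, differed by -0.0077 to 1.62. The part of this in the ratios was not tested. The ratio of Bag3 was -6.46, -6.26, -6.26 and -6.81 at ZnO 4 and -3.76, -3.85, -3.70 and -3.30 at ZnO 16. The ratio of Hsph1 was -11.47, -11.46, -10.89 and -11.37 against -8.35, -9.44, -9.03 and -8.10. The ratio of Hspa1a, not above background at ZnO 4, was -13.11, -12.72, -14.25 and -13.73 against -7.03, -7.46, -6.55 and -6.01. The doses were apart for all 3.

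Relative to Hspa8, Bag3 was higher by 2.80 and Hsph1 by 2.57. For Hspa1a, taken with its brighter probe, only a bound holds. With signals raised to each array's lowest one well above background, the ratio of that probe was higher by at least 5.21 in this processing. Normexp and quantile normalization gave 3.20, and the value from the signals below background, 6.69, is no measurement of size. The 5.21 is no minimum for the gene, since the dimmer Hspa1a probe had a bound of only 2.30-fold before any ratio. For Bag3, Hsph1 and the brighter Hspa1a probe every ZnO 16 array lay above every ZnO 4 array, for Hspa1a also with its raised signals. Each gave p = 0.0286 in an exact permutation test (two-sided, 70 assignments of arrays to doses), the smallest p that 4 arrays against 4 allow. Adjusted over the 6 ratios tested (Benjamini-Hochberg, exact permutation) these were 0.0571, which misses 0.05. For Hspa1a the test shares the limit that only its ZnO 16 signals let it be tested. The constitutive members gave 0.80 for Hspa9 (exact permutation p = 0.286), 0.15 for Hspa4 (exact permutation p = 0.771) and -0.36 for Hspa2 (exact permutation p = 0.4), with overlapping doses. The ratio of Hspa9 was 0.27 without ZnO 4 replicate 4 and 0.21 without the spots of its low-signal area. Since the Hspa8 probes disagree, the ratios depend on which one is used: against the probe A_64_P096381 they were 1.46 for Bag3, 1.23 for Hsph1 and 5.36 for Hspa1a, and against A_44_P1086385 3.66, 3.43 and 7.55, with the Hspa1a values resting on signals below background. Constitutive members passed too in these cases (Benjamini-Hochberg, exact permutation): Hspa9 higher by 1.66 against A_44_P1086385 (adjusted p = 0.0429), and Hspa2 at -1.70 and Hspa4 at -1.19 against A_64_P096381 (adjusted p = 0.0343 each). The rises of the 3 inducible members over Hspa8 kept their sign with each of its 4 probes.

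**Figure D4:**
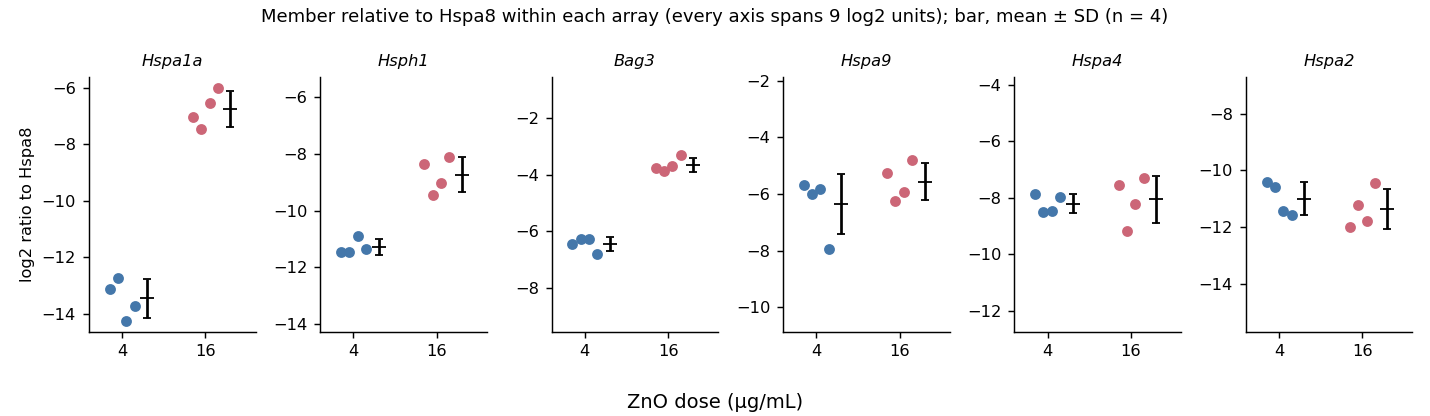
Log2 ratio of each member to the brightest Hspa8 probe on the same array, by ZnO dose; points are arrays, bars the mean ± SD (n = 4), and each axis spans 9 log2 units. The doses separate for Hspa1a, Hsph1 and Bag3 and overlap for Hspa9, Hspa4 and Hspa2.

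The rest of the HSP70 machinery was read from a list of 48 further genes, of which 45 were on the array and 40 were tested. Of these, 17 were higher and 4 lower, with a median difference of 0.43, against 19.8% higher, 21.9% lower and a median of 0.0047 over all genes. The doses did not overlap in 52.5% of the tested genes of the list, against 40.0% of all genes. The list was chosen with earlier results of these data known, so these shares do not test it. The count of higher genes depends on the scaling: it was 1 when arrays were not scaled and 3 when they were scaled to the spike-ins, with 5 genes lower in both. With the main scaling, Dnaja1, Dnajb9, Chordc1 and Dnajb6 were the only called genes of the list outside the spike-in range of -0.68 to 1.62. The other called differences of the list cannot be told apart from a difference between slides.

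Of the other HSP70 genes 4 were tested and 1 was higher. Hspa5, the HSP70 of the endoplasmic reticulum (BiP), read 2.84, 3.04, 3.23 and 2.97 at ZnO 4 and 3.62, 3.70, 3.69 and 3.53 at ZnO 16. It was higher by 0.61 (limma adjusted p = 0.00228), a direction that turned to -0.14 without scaling and -0.079 with spike-in scaling. Relative to the median of all genes it was 0.61 in each case by construction. Hyou1, the HSP110 relative of the endoplasmic reticulum, Hspa13 and Hspa14 did not pass the test.

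J-domain proteins, which deliver clients to HSP70, moved both ways: of 17 tested, 7 were higher and 3 lower, with a median of 0.077. Dnaja1, a cytosolic partner of Hspa8 and Hspa1a, read -0.77, -1.18, -0.72 and -0.82 at ZnO 4 and 1.01, 0.92, 1.36 and 1.64 at ZnO 16. It rose by 2.10 (SE 0.18, limma adjusted p = 1.40e-05), the largest called rise of the list, and was still called at 1.35 without scaling. Dnajb9, a partner of Hspa5 in the endoplasmic reticulum, read -3.73, -4.88, -3.88 and -3.73 against -2.15, -2.34, -1.75 and -2.10 and rose by 1.97 (limma adjusted p = 5.10e-04), a call lost at 1.22 without scaling (limma adjusted p = 0.0581). It was not well above background on ZnO 4 replicate 2, and with normexp and quantile normalization its rise was 0.79 and still called.

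In the other direction, Dnajb6, a suppressor of protein aggregation, read 0.19, 0.27, 0.24 and 0.56 at ZnO 4 and between -1.30 and -0.47 at ZnO 16. It fell by 1.23 (SE 0.18, limma adjusted p = 5.23e-04), and its other probe differed by -0.87. Dnajc7, which can bind both HSP70 and HSP90, fell by 0.67 (limma adjusted p = 0.00591), a call lost with scaling to the array median (-0.50, limma adjusted p = 0.108). The other J-domain genes called higher were Dnajb4, Dnajb2, Dnajc2, Dnaja3 and Dnajc5, by 0.56 to 1.46, and Dnajb12 was lower (-0.50). Dnajb4 was well above background on 2 of 4 arrays at ZnO 4 and on all 4 at ZnO 16, so only the ZnO 16 arrays let it be tested. Its call, and its place among the genes called higher, follow in part from that rule. The other probe of Dnajc5 differed by -0.06.

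Of 8 nucleotide exchange factors tested beyond the members, 4 were higher and 1 lower, with called differences of -0.41 to 0.84. Hspbp1, a cytosolic exchange factor, was higher by 0.84 (limma adjusted p = 0.00125) and read -0.062 to 0.26 at ZnO 4 and 0.70 to 1.18 at ZnO 16. Bag6, which guards newly made proteins, was higher by 0.77 (limma adjusted p = 0.0361), but its doses overlapped, from 1.77 to 2.21 against 2.12 to 3.30. Bag5 was the one called lower, at -0.41 (limma adjusted p = 0.0238). The calls of Hspbp1 and Bag6 were lost without scaling (0.085 and 0.017) and with spike-in scaling (0.15 and 0.079), and that of Bag5 with scaling to the array median (-0.24).

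The calls of Bag6 and Bag5 lay close to the threshold. Bag6 was no longer called when any of ZnO 4 replicates 1, 2 and 3 or ZnO 16 replicates 2 and 3 was left out (0.59 to 0.83, limma adjusted p up to 0.0966). Bag5 lost its call in the same way with ZnO 4 replicates 1 and 3 and ZnO 16 replicates 2 and 3 (-0.39 to -0.35, limma adjusted p up to 0.0659). Bag1, named here after its values were seen, had the largest difference of the list, 2.93, but did not pass the test (limma adjusted p = 0.076). Its SD was 3.18 (n = 4) at ZnO 4, where its spot on replicate 4 fell within the low-signal area. Without the spots of that area it was higher by 1.34 (limma adjusted p = 1.36e-04).

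Among 6 adaptors and ligases 2 were higher and 0 lower by limma, with 1 lower, Ttc1, at an unadjusted p under 0.05. Chordc1, an HSP90 co-chaperone, read 0.23, -0.19, -0.22 and 0.26 at ZnO 4 and 1.72, 1.30, 2.26 and 1.77 at ZnO 16, a rise of 1.74 (SE 0.21, limma adjusted p = 1.14e-04). Stip1, the HOP adaptor that hands clients from HSP70 to HSP90, read 0.016, 0.35, 0.052 and -0.073 against 1.50, 1.67, 1.51 and 1.74, a rise of 1.52 (SE 0.13, limma adjusted p = 1.26e-05). Both calls were lost without scaling (0.99 and 0.76), and that of Stip1 also with spike-in scaling (0.83). Stub1, the ligase CHIP, which marks clients of HSP70 for degradation, differed by 0.20 and was not called.

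Among 5 heat shock factors and regulators tested 3 were higher. Hsf1, the factor that drives the response, read 0.41, 0.75, 0.39 and 0.71 at ZnO 4 and 1.40, 2.06, 2.03 and 1.05 at ZnO 16. It was higher by 1.07 (SE 0.22, limma adjusted p = 0.00407), while its other probe differed by 0.23, so the size rests on the probe. Fkbp4, an HSP90 co-chaperone, was higher by 0.77 (limma adjusted p = 5.83e-04), and both calls were lost without scaling (0.31 for Hsf1 and 0.020 for Fkbp4) and with spike-in scaling. Hsbp1, a small protein that binds heat shock factor 1, was higher by 0.48, and Hsf2 was not called.

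Promoter letters were counted for this list too. Of 40 genes with a window, 6 (15%) held a pair of units, against 15.9% of all windows, and 2, Dnaja1 and Chordc1, held a run.

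**Figure D5:**
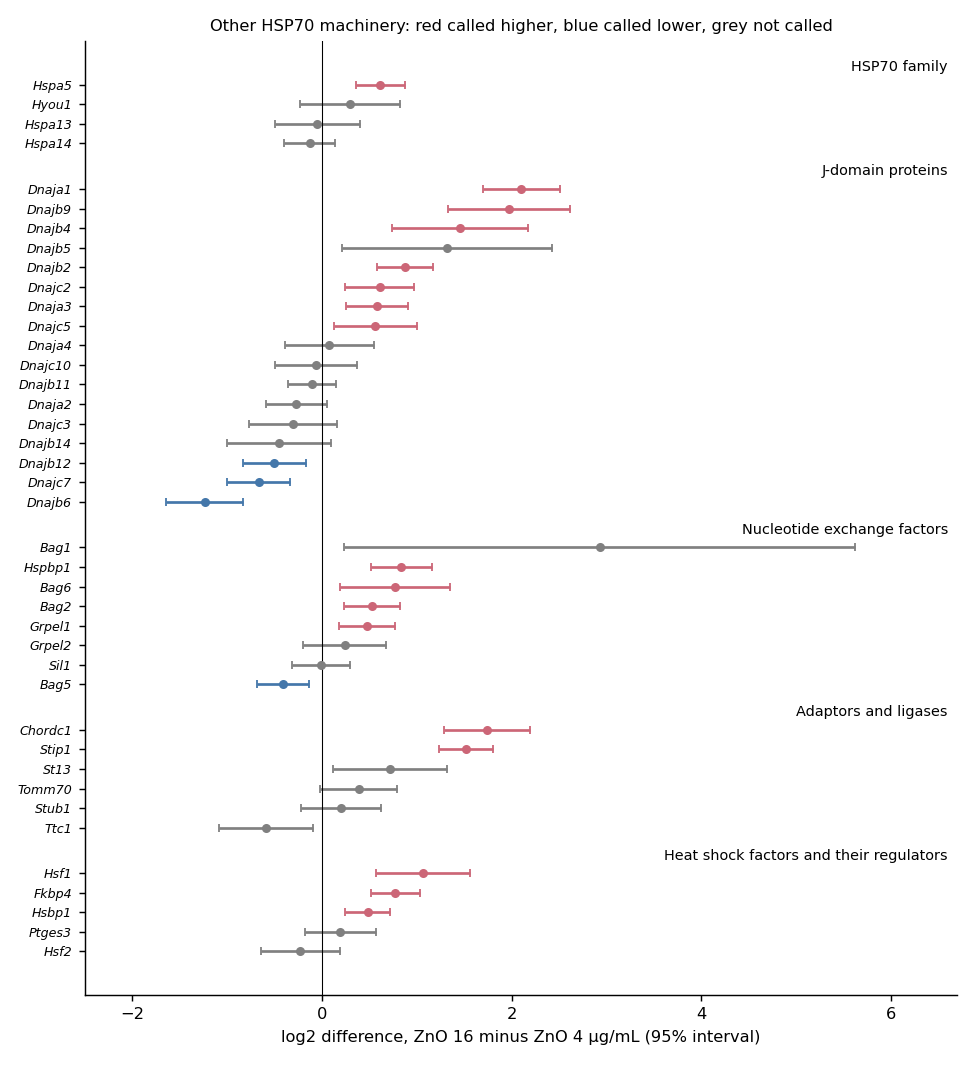
Log2 difference (ZnO 16 minus ZnO 4) with 95% interval for 40 other genes of the HSP70 machinery, by group; red was called higher, blue lower and grey not called (limma adjusted p under 0.05). With this scaling 17 genes are higher and 4 lower, but 1 is higher without scaling between arrays; the wide interval of Bag1 comes with its low spot on ZnO 4 replicate 4.

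Last, genes with a pattern like that of an inducible and of a constitutive member were looked up. The measure was the root mean square distance of their 8 values, each minus the gene's own ZnO 4 mean. The 6544 candidates were genes other than the members, with an ordinary symbol and well above background on all 8 arrays. Nearest to Hsph1 were Zfp394 (0.30 log2 units), Rab20 (0.31), Trib3 (0.32), Jun (0.33) and Sertad1 (0.35), which differed between doses by 2.44 to 2.95. Trib3 is a stress-induced pseudokinase and Jun a subunit of the transcription factor AP-1. Nearest to the brightest Hspa8 probe were Pip4p1 (0.066), Arrdc1 (0.069), Abca2 (0.070), Nfatc4 (0.070) and Bscl2 (0.085), which differed by 0.098 to 0.21 and were not called. Likeness over 8 arrays of 2 doses mostly reflects the size of the dose difference, and these genes share their arrays and scaling.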

How the data were processed

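Arrays of 62976 spots were read as deposited. Per the file headers and the submitters' processing notes, the authors scanned 1-colour arrays with Agilent Feature Extraction 11.0.1.1, and the deposited intensity values are background-subtracted processed signals without normalization between arrays. Genes were named by RefSeq accession (table of assembly GRCr8, used for names only). Probes without a match kept the identifier given on the array, which was counted as a gene.

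log2 signals were scaled to each array's 75th percentile. Outlier-flagged spots were left out and spots of a probe averaged. Probes well above background on at least 3 of 4 arrays of a dose were kept, and the brightest stood for its gene, with a second fit over all kept probes. Doses were compared with limma 3.58.1 in R 4.3.3 (lmFit, eBayes with intensity trend, two-sided, Benjamini-Hochberg over all genes), checked on simulated data. Named genes are all members, per group of the wider list the 2 largest called differences in each direction, and the 5 nearest to Hsph1 and to Hspa8. The members and lists were chosen with earlier results of these data known. Alternatives changed scaling, background, filters, masks, probes and arrays, and 3 kinds were added after the data were seen: a mask taken over bright spots, other reference probes and a floor at background. Same-numbered replicates did not vary together in every pair (r from -0.22 to 0.40), so numbers were not taken as pairs. The number of arrays limits precision.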

Additional observations from a re-analysis of the deposited data

Results flagged for a closer look

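In 26 groups of 4 arrays, 1 for each member probe and dose, 2 held an array far from the other 3. Chance gives about 1 in 20 such groups. The Hspa9 probe A_44_P1089776 read -0.18 in ZnO 4 replicate 4 against 1.70 to 1.96 on the other ZnO 4 arrays. Its spot in the low-signal area of that array is described above. The Hspa8 probe A_64_P096381 read 4.48 in ZnO 16 replicate 4 against 3.80 to 3.91 on the other ZnO 16 arrays, while the other 3 Hspa8 probes had their lowest ZnO 16 value on that array.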

How the results depend on the processing

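Hspa1a, Bag3 and Hsph1 stayed called higher in every one of the alternatives that tested them (21, 22 and 21), at 3.57 to 7.10, 2.20 to 3.13 and 1.54 to 2.90. Requiring all 8 arrays above background left 4 members tested and 1, Bag3, higher. Normexp with quantile normalization called 5 members higher and 1 lower, the added calls being the constitutive Hspa8, Hspa9 and Hspa2. Of all genes, 229 were higher without scaling and 260 with spike-in scaling, against 2669; of the wider list 1 and 3, against 17. Higher calls were 63.2% of all calls with median scaling, 4.93% without scaling and 5.79% with spike-in scaling, against 47.6%. The wider list had 1 lower with median scaling and 2 without the filter. Plain differences turned for Hspa4 (-0.45 and -0.38), Hspa8 (-0.59 and -0.53) and Hspa5 (-0.14 and -0.079) without scaling and with spike-in scaling, and for Hspa2 without ZnO 16 replicate 1 (0.055; range over arrays left out -0.40 to 0.055). Leaving out each array gave 3 to 4 members higher and 0 lower, 14 to 17 higher and 2 to 5 lower in the wider list, and 1952 to 2695 genes higher and 2293 to 2835 lower; the wider list's low of 2 came without ZnO 16 replicate 3. The replicate block called 3 members higher and 0 lower, 2591 genes higher and 2879 lower, and changed the call of no member.

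Ratios to Hspa8 passed 0.05 after adjustment (exact permutation) with normexp and quantile normalization: Hspa1a 3.20, Hsph1 1.16 and Bag3 2.67, and also the constitutive Hspa2 (-0.62). They also did with A_44_P1086385 as reference (7.55, 3.43 and 3.66), with A_64_P096381 (5.36, 1.23 and 1.46; constitutive members that passed with these 2 probes are given above) and with Hspa4 (6.54, 2.42 and 2.65), since more ratios then shared the smallest p or fewer were tested. Leaving out each array gave 6.42 to 6.93, 2.36 to 2.80 and 2.68 to 2.86. The ratio of Hspa4 turned to -0.023 and -0.10 without ZnO 16 replicate 1 and replicate 4 (range -0.10 to 0.51), to -0.095 against A_44_P1159711 and to -1.19 against A_64_P096381. Against A_64_P096381 Hspa9 turned to -0.54, and against A_44_P1086385 Hspa2 turned to 0.50. The causes were not tested. Signal over background limits Hspa1a at ZnO 4, Hspa2 and Hspa4l.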
